A study of Mus musculus with 8 samples.

Results

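Solute carriers are membrane proteins that move sugars, amino acids, metals, nucleotides and other small solutes across the plasma membrane or the membranes of organelles, and their gene symbols carry a family number after the letters Slc. The members described here are the 35 genes, each with 1 probe, that the study's supplementary list of fraction-dependent genes names with a symbol beginning with Slc and a digit. They come from 17 families and are 35 of the 1998 rows of that list used here and of the 42006 distinct probes of the array. The list was chosen by an analysis of variance on these same 8 samples, so the number of members that differ between fractions is a description and not independent evidence.

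The samples were mouse embryonic stem (ES) cells of the 129/Ola strain in which the reporter Hex-IRES-Venus (HV, written HIV in the labels) had been placed in the Hex locus. Hex is a homeobox gene active in the primitive endoderm (PrEn), the early extra-embryonic lineage that lies beside the epiblast, and a translational amplifier lets a weak Hex transcript give visible Venus fluorescence. All samples carried this allele and the bacterial BirA enzyme, and all were grown feeder free for 24 h with the cytokine LIF, which keeps ES cells self-renewing. Clones 5.1 and 16.1, each a single targeted clone with its selection cassette removed, were sorted by flow cytometry for Venus (V) and for the ES cell surface antigen SSEA-1 (S), a carbohydrate. This gave 4 fractions, V-S+ and V+S+ with SSEA-1 and V-S- and V+S- without it, which the labels describe as pre-primitive endoderm. Each fraction had 2 samples, 1 from each clone. Each sample (Cy3) was hybridised with a common reference RNA pooled from several mouse cell lines (Cy5) on a 2-colour 44K array with 60-base probes, and each array was scanned 2 times. The value used throughout is the log2 Cy3/Cy5 ratio of a probe, and a difference between fractions is a difference of such ratios, so that 1 equals a 2-fold change. No ratio of one probe was set against that of another.

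In the embryo, cells of the primitive endoderm become an absorptive epithelium that supplies the epiblast, whereas ES cells depend on sustained uptake of glucose and amino acids. Solute carriers differ in what they move and where they sit. Some face the medium, some load mitochondria, and some fill the Golgi apparatus or other vesicles. In sorted bulk samples, fewer cells of a type and less RNA per cell cannot be told apart.

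All 35 members were well above background in Cy3 in all 16 scans and none was saturated. In 17 of them the Cy3 signal stayed below 10 times the local background in every scan, which limits their precision and narrows their ratios. These were Slc4a1, Slc5a1, Slc5a10, Slc5a4b, Slc7a9, Slc9a7, Slc15a1, Slc16a4, Slc16a7, Slc18a1, Slc22a15, Slc24a3, Slc27a5, Slc30a4, Slc35d3, Slc35f1 and Slc37a2. The reference channel was not well above background in every scan for Slc16a7 (2 of 16 scans) and Slc35f1 (10 of 16). Of the labelled cell types, 11 of 22 primitive endoderm markers had a name in the list, and all 11 were higher in V+S- than V-S- cells, by 0.57 to 1.76. All 5 named mesenchymal markers (Col1a2, Vim, Twist2, Snai1 and Acta2) were also higher there, by 1.00 to 1.99, with mean log2 ratios of -3.29 and -3.08 in the 2 V-S- samples and -1.86 and -1.28 in the 2 V+S- samples. The neuroectoderm gene Sox11 (1.503) and the trophectoderm genes Gata3 (1.12) and Krt7 (1.33) were higher there as well. The 5 named pluripotency genes were lower, at -0.35 to -1.41. They were Nanog, Pou5f1, Dppa2, Dppa3 and, counted with them throughout, Fut9 (-0.35), whose enzyme makes the SSEA-1 epitope. Only markers on the list could be seen, which were 5 of 9 mesenchymal, 1 of 4 neuroectoderm, 2 of 3 trophectoderm, 5 of 13 pluripotency and 0 of 5 mesoderm markers. In V+S+ against V-S+ cells the primitive endoderm markers were higher by 0.17 to 1.08 and the mesenchymal ones by 0.24 to 0.65, with Sox11 at 0.66, Gata3 at 0.55 and Krt7 at 0.42. The pluripotency genes did not move one way there, with Dppa3 at -1.37, Nanog at -0.72 and Pou5f1 at 0.22. In V+S- against V+S+ cells the primitive endoderm markers were higher by 0.14 to 1.37 (median 0.54) and the mesenchymal ones by 0.77 to 1.57 (median 0.82), and the pluripotency genes were lower, at -0.09 to -1.23 (Pou5f1). Their part in the transporter differences was not tested.

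The members split by the Venus gate, in the same direction in both SSEA-1 states. In the SSEA-1 positive cells the V+S+ mean exceeded the V-S+ mean for 21 of the 35 members and was below it for 14, and the sign was shared by the 2 clones for each of the 35. In the SSEA-1 negative cells the same 21 were higher and the same 14 lower in V+S- than V-S-, again with 0 members of opposite sign in the clones. The clones had opposite signs for 100 of the other 1963 probes of the list and 7329 of all 29483 probes in the SSEA-1 positive cells. In the SSEA-1 negative cells these numbers were 13 and 5824. The 2 comparisons had the same sign for 97.4% of the other probes of the list, which was chosen on these samples, and for 77.8% of all probes. These comparisons share no sample. Across the 35 members the 2 sets of differences had a Pearson r of 0.88 (Spearman rho 0.77), as against 0.89 over the other 1963 probes of the list and 0.83 over all 29483 probes tested, where points share slides and the common reference. In 16 members all 4 V+ samples lay above all 4 V- samples and in 10 all 4 lay below, as they did for 16.7% and 12.3% of all probes tested and for 50.8% and 27.4% of the other probes of the list. The 9 members whose V+ and V- samples overlapped were Slc5a1, Slc5a10, Slc7a3, Slc16a4, Slc22a17, Slc24a3, Slc25a20, Slc27a2 and Slc27a3.

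**Figure D1:**
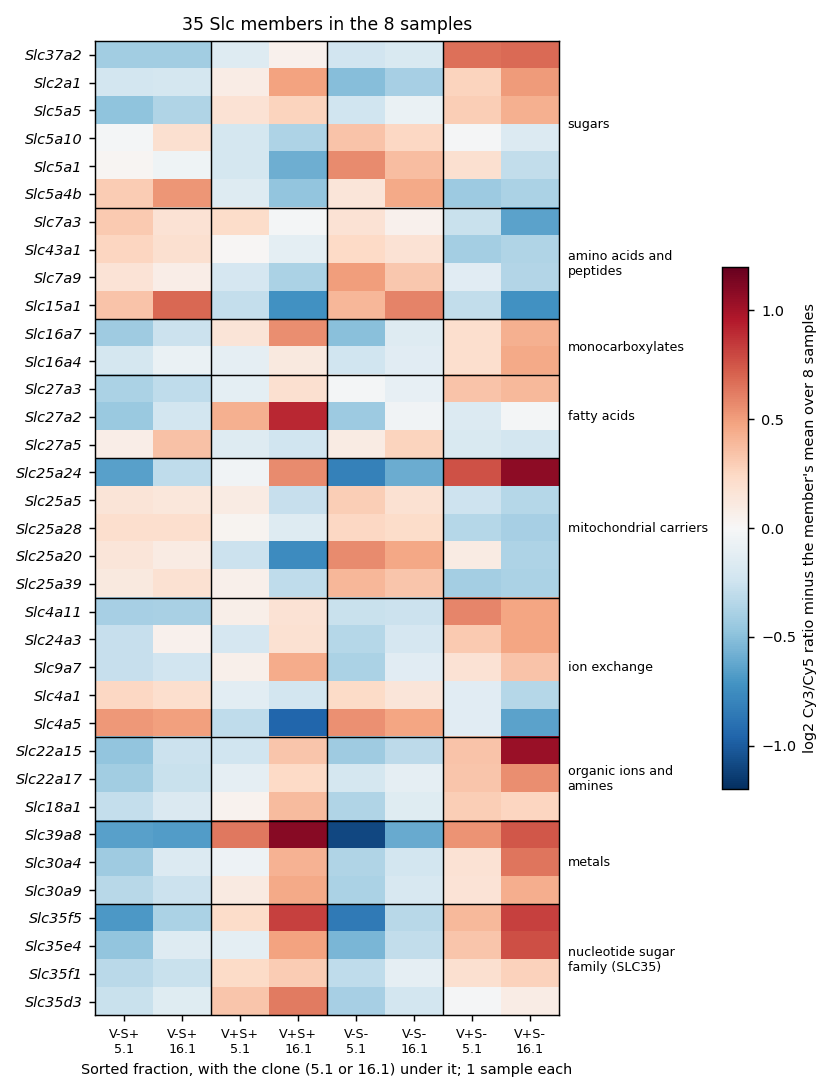
Heat map of the 35 Slc members (rows, grouped by what they carry) in the 8 samples (columns, by fraction and clone). Colour is the log2 Cy3/Cy5 ratio minus the member's mean over the 8 samples, red above and blue below. Metal, monocarboxylate, organic ion and SLC35 members are redder in V+S+ and V+S-, and the 4 amino acid and peptide members are bluer in V+S-.

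A probe was called when limma gave a false discovery rate (FDR) under 0.05 over all probes tested and the change was over 1.5-fold. In V+S- against V-S- cells, 11 of the 35 members were called higher (31.4%) and 7 lower (20%), beside a background of 6.3% and 1.49% of all probes tested (7.79% in either direction). Among the other probes of the list, which was chosen on these samples, 53.4% were called higher and 13% lower. The median difference of the members was 0.43, that of all probes 0.01. Without the clone term 0 calls were left on dropping either V-S- sample or the V+S- sample of clone 16.1, where at most 0.0134% of all probes were called in a direction. Leaving out one or the other V-S+ sample gave 9, beside 3.55% to 3.62% of all probes higher and 0.663% to 0.683% lower. With clone as a block, which pairs the fractions of a clone, the calls were 13 higher and 8 lower, beside 8.96% and 3.32% (12.3%). Their number changed in some fits with 1 sample left out. Centring each scan on its median in place of the loess curve gave 15 higher and 2 lower, beside 12.7% and 0.471% of all probes. The median difference of all probes was 0.13 under that centring.

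In V+S+ against V-S+ cells limma called 0 of the 35 members at this threshold without the clone term, beside a background of 0%, though 26 members and 5514 of all probes had an unadjusted p under 0.05. The unmoderated test also called 0. The block fit called 7 members higher, namely Slc39a8, Slc35f5, Slc27a2, Slc25a24, Slc16a7, Slc35d3 and Slc5a5, and 4 lower, namely Slc4a5, Slc15a1, Slc5a4b and Slc25a20, beside 3.87% and 1.75% of all probes (5.62%). Of the other probes of the list 25.6% were called higher and 8.71% lower in this fit, 34.3% in all as against 31.4% of the members. In the block fit fewer members were called lower when the V-S+ or the V+S+ sample of clone 16.1 was left out. The authors' log10 values with the block gave 6 higher (Slc39a8, Slc35f5, Slc27a2, Slc35d3, Slc5a5 and Slc9a7) and 1 lower (Slc4a1), beside 1.91% and 0.346% of all probes. None of the 4 lower members named above was called there, though their differences were as large or larger (Slc4a5 -1.21, Slc15a1 -1.57, Slc5a4b -1.02 and Slc25a20 -0.71). That of Slc4a1 was -1.13, as against -0.40 from the scanner intensities. The scanner software's processed signals with the block gave 8 higher and 7 lower, beside 4.5% and 1.99% of all probes. The difference was larger in clone 16.1 than in clone 5.1 for 34 of the 35 members. It was so for 1858 of the other 1963 probes of the list and for 20955 of all 29483 probes.

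**Figure D2:**
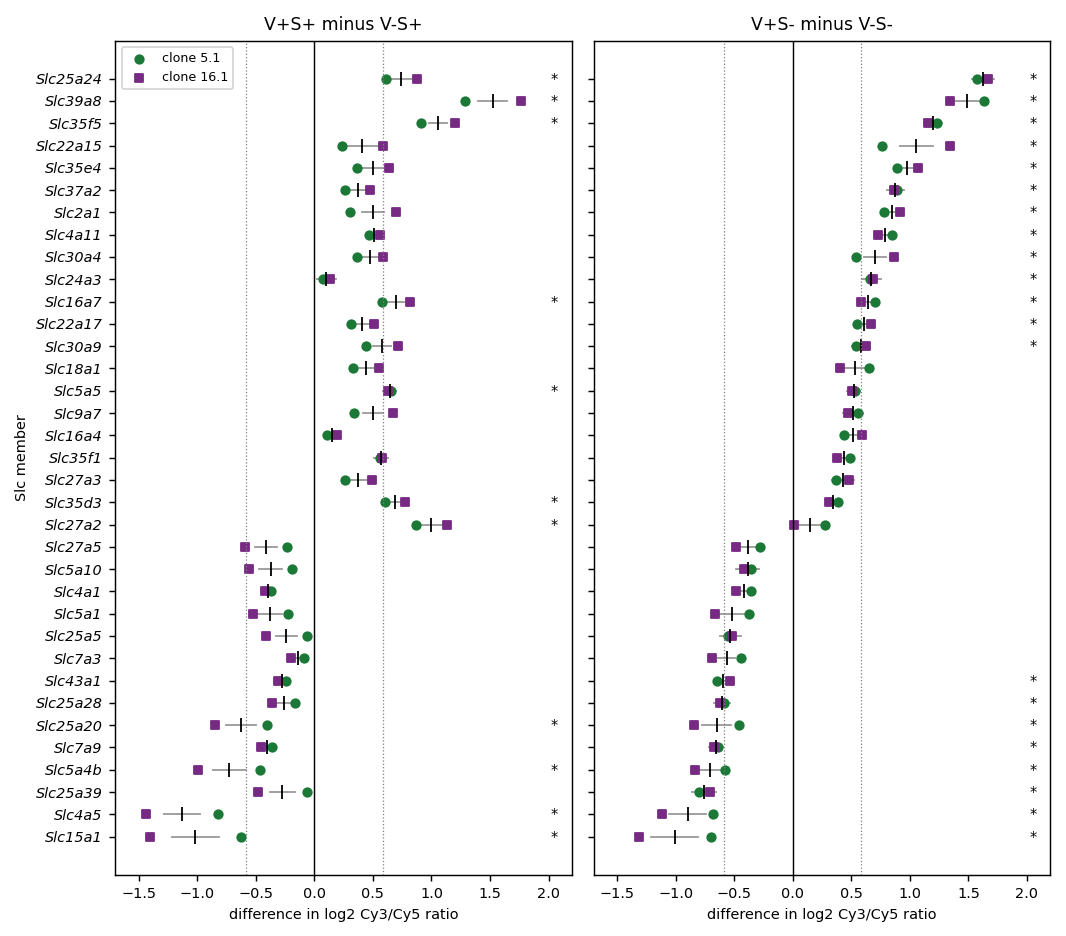
Difference in log2 Cy3/Cy5 ratio of each Slc member between Venus positive and Venus negative cells, in SSEA-1 positive cells (left) and SSEA-1 negative cells (right). Circles are clone 5.1, squares clone 16.1, black ticks the mean and grey bars its SE with clone as a block. Dotted lines mark 1.5-fold and asterisks the calls with clone as a block. No member lies on opposite sides of 0 in the 2 panels, and squares lie farther out than circles for 34 members on the left.

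The 3 members that move metals had higher means in Venus positive cells, and Slc39a8 and Slc30a9 were called in V+S- against V-S- cells. In V+S+ against V-S+ cells only Slc39a8 of these was called, with the block. Slc39a8 encodes ZIP8, which imports zinc and manganese. Its log2 ratio was -0.33 and -0.35 in V-S+ cells of clones 5.1 and 16.1, 0.95 and 1.42 in V+S+, -0.77 and -0.28 in V-S-, and 0.86 and 1.06 in V+S-. All 4 V+ samples were thus above all 4 V- samples. It rose by 1.52 ± 0.12 (SE with clone as a block) from V-S+ to V+S+ (limma adjusted p = 0.00259 with the block, 0.142 without it). From V-S- to V+S- it rose by 1.49 ± 0.20 without the block (adjusted p = 0.0139). Slc30a9 and Slc30a4 encode members of the ZnT family of zinc carriers. Slc30a9 was higher by 0.59 ± 0.15 in V+S- than V-S- cells and was called. For Slc30a4 the difference was 0.70, with an SE of 0.21 without the block and 0.09 with it. It was called only with clone as a block (adjusted p = 0.00174, as against 0.0679 without it).

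All 4 members of family 35, whose known relatives carry nucleotide sugars into the Golgi apparatus for glycosylation, had higher means in V+ cells in both Venus comparisons. Slc35f5 was -0.27 and 0.03 in V-S+ cells of clones 5.1 and 16.1, 0.64 and 1.23 in V+S+, -0.43 and 0.08 in V-S-, and 0.81 and 1.24 in V+S-. Its 2 V+ fractions did not differ beyond their spread, at 0.09 ± 0.27 apart. Slc35d3, known for its part in the dense granules of platelets, was -0.96 and -0.84 in V-S+, -0.35 and -0.07 in V+S+, -1.09 and -0.91 in V-S-, and -0.70 and -0.60 in V+S- cells. It was higher by 0.69 ± 0.06 in V+S+ than V-S+ cells with clone as a block (adjusted p = 0.00313). Without the block the SE was 0.12 (adjusted p = 0.147). It was higher by 0.35 ± 0.12 in V+S- than V-S- cells, which was not called. The 2 differences were not shown to differ (-0.34, adjusted p = 0.123 with the block, 0.671 without). Slc35e4 was called higher in V+S- than V-S- cells (0.98 ± 0.24), and Slc35f1 differed there by 0.43 ± 0.09, under the fold threshold.

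Sugar transporters went both ways. Slc37a2, which exchanges sugar phosphates at the endoplasmic reticulum, was -1.71 in V-S+ cells of both clones, -1.45 and -1.24 in V+S+, -1.52 and -1.47 in V-S-, and -0.63 and -0.61 in V+S-. It was highest in V+S- in both clones, by 0.88 ± 0.08 over V-S- (adjusted p = 0.00976) and by 0.72 ± 0.07 over V+S+ (adjusted p = 0.00768 with clone as a block, 0.0962 without). Slc2a1 (GLUT1), the facilitated transporter that gives most cells their basal glucose uptake, was called higher in V+S- than V-S- cells, by 0.85 ± 0.15. Slc5a5, the sodium/iodide symporter of the thyroid, was higher by 0.64 ± 0.05 in V+S+ than V-S+ cells with clone as a block.

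The other 3 members of family 5, which take up sugars with sodium in kidney and intestine or are close relatives, had lower means in V+ cells in both Venus comparisons and were dim, at 2.61 to 8.04 times background. Slc5a4b was 1.35 and 1.57 in V-S+ cells of clones 5.1 and 16.1, 0.89 and 0.57 in V+S+, 1.19 and 1.49 in V-S-, and 0.60 and 0.66 in V+S-. Its V+ and V- samples did not overlap, and it was called lower in V+S- than V-S- cells (-0.71 ± 0.15, adjusted p = 0.0292). Slc5a1 and Slc5a10 were lower there by 0.52 ± 0.19 and 0.39 ± 0.10 and were not called. The probes of a pair of these paralogs are shown, since each value rests on 1 probe. Binding to transcripts of other genes was not tested. They read, 5′ to 3′,
Slc5a4b: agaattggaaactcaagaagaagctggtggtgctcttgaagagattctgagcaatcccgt
Slc5a10: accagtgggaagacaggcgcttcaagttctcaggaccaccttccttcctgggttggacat

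In the amino acid and peptide group all 4 members had lower means in V+ cells in both Venus comparisons. In V+S- against V-S- cells 3 of the 4 were called lower and 0 higher, beside 1.49% and 6.3% of all probes and 13% and 53.4% of the other probes of the list. Without the clone term these calls too were lost when either V-S- sample or the V+S- sample of clone 16.1 was left out. In V+S+ against V-S+ cells 1 of the 4 (Slc15a1) was called, only with the block. Slc15a1 encodes PEPT1, which takes up small peptides together with protons. It measured 1.15 and 1.49 in V-S+ cells of clones 5.1 and 16.1, 0.52 and 0.08 in V+S+, 1.21 and 1.40 in V-S-, and 0.51 and 0.08 in V+S-. It fell by 1.01 ± 0.21 from V-S- to V+S- (adjusted p = 0.0287) and by 1.02 ± 0.20 from V-S+ to V+S+ (adjusted p = 0.0168 with clone as a block, 0.162 without), on a signal of 2.49 to 7.12 times background. The difference in clone 16.1 (-1.41 in SSEA-1 positive cells) was larger than that in clone 5.1 (-0.63).

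Slc7a9, the light subunit of the cystine transporter of the kidney, was called lower by -0.66 ± 0.11 in V+S- than V-S- cells, and Slc43a1 (LAT3), a carrier of branched-chain amino acids, by -0.59 ± 0.07. Slc7a3 (CAT3), an importer of arginine and lysine, had a bright signal of at least 182 times background. It was 1.01 and 0.86 in V-S+ cells of clones 5.1 and 16.1, 0.92 and 0.67 in V+S+, 0.87 and 0.74 in V-S-, and 0.43 and 0.05 in V+S-. Only V+S- cells stood apart, by -0.70 ± 0.15 from V-S+ cells (called lower, adjusted p = 0.0312) and by -0.55 ± 0.08 from V+S+ cells (adjusted p = 0.0116 with clone as a block, under the fold threshold).

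The fatty acid group held the member that differed most between the Venus positive fractions in the lower direction. Slc27a2 (FATP2) activates and takes up long and very long fatty acids. It was -0.71 and -0.49 in V-S+ cells of clones 5.1 and 16.1, 0.16 and 0.64 in V+S+, -0.70 and -0.30 in V-S-, and -0.43 and -0.29 in V+S-. Both V+S+ samples were above the other 6. The rise from V-S+ to V+S+ was 1.00 ± 0.09 with clone as a block (adjusted p = 0.00296). V+S- and V-S- cells were 0.14 ± 0.09 apart with the block (adjusted p = 0.251) and 0.14 ± 0.20 without it (adjusted p = 0.645). Between the 2 Venus positive fractions Slc27a2 fell by 0.76 ± 0.09 (adjusted p = 0.00907 with the block, 0.184 without). Slc27a3 was called higher in V+S- than V-S+ cells (0.71 ± 0.11), and Slc27a5, the bile acid-CoA ligase of liver, was lower by 0.38 ± 0.11 in V+S- than V-S- cells and was not called. The Slc27a2 probe, shown because the pattern rests on it alone, reads
Slc27a2: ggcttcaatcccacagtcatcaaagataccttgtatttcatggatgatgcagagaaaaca

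**Figure D3:**
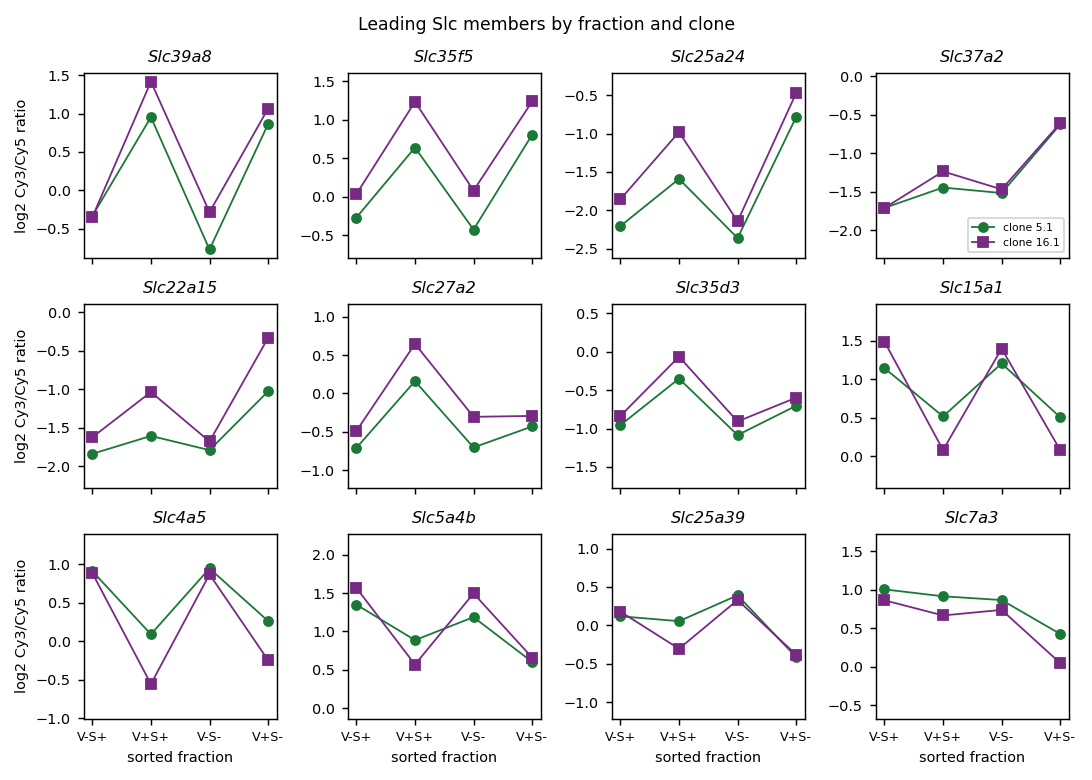
Log2 Cy3/Cy5 ratio of 12 leading Slc members in the 4 sorted fractions, 1 panel per member, with circles for clone 5.1 and squares for clone 16.1 (1 sample each). All panels span the same range of log2 units, centred on the member. Slc39a8 and Slc35f5 rise in both V+ fractions, Slc25a24, Slc37a2 and Slc22a15 are highest in V+S-, Slc27a2 and Slc35d3 are highest in V+S+, and the last 5 panels show members that are lower in V+S- than V-S- cells.

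Among the mitochondrial carriers (family 25, inner membrane proteins that pass metabolites between cytosol and matrix) 1 member had higher and 4 had lower means in V+ cells in both Venus comparisons. Slc25a24 is a calcium-sensitive carrier that exchanges ATP-magnesium for phosphate. It was -2.20 and -1.85 in V-S+ cells of clones 5.1 and 16.1, -1.59 and -0.98 in V+S+, -2.36 and -2.14 in V-S-, and -0.79 and -0.47 in V+S-. It rose by 1.62 ± 0.23 from V-S- to V+S- (adjusted p = 0.0148), the largest rise of any member in that comparison, and by 0.74 ± 0.09 from V-S+ to V+S+ with clone as a block (adjusted p = 0.00529).

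The 4 lower carriers were Slc25a39, Slc25a28, Slc25a20 and Slc25a5. Slc25a39, which brings glutathione into mitochondria, was 0.12 and 0.18 in V-S+ cells of clones 5.1 and 16.1, 0.06 and -0.30 in V+S+, 0.39 and 0.33 in V-S-, and -0.41 and -0.38 in V+S-. It fell by 0.76 ± 0.12 from V-S- to V+S- (adjusted p = 0.0163), and Slc25a28 (mitoferrin-2, an iron importer) fell by 0.60 ± 0.08 (adjusted p = 0.0131). Slc25a20, the carnitine-acylcarnitine carrier of fatty acid oxidation, was lower by 0.65 ± 0.20 there and was called only with clone as a block (SE 0.12, adjusted p = 0.00659). Slc25a5, an ADP/ATP translocase and the brightest member at 1131 times background or more, was lower by 0.54 ± 0.13, under the fold threshold. The probes of 3 of these carriers are shown because the family shares a repeated structure, and they hold 45% to 58.3% G and C.
Slc25a5: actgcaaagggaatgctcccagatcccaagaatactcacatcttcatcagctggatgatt
Slc25a28: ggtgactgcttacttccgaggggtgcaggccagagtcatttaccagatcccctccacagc
Slc25a39: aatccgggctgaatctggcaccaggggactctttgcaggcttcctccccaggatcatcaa

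The ion exchangers divided by gene. Slc4a5, a sodium-bicarbonate cotransporter, was 0.91 and 0.89 in V-S+ cells of clones 5.1 and 16.1, 0.09 and -0.55 in V+S+, 0.95 and 0.87 in V-S-, and 0.26 and -0.24 in V+S-. The 2 clones were close in V- cells and 0.51 to 0.65 apart in V+ cells. It fell by 1.13 ± 0.16 from V-S+ to V+S+ with clone as a block (adjusted p = 0.00619, 0.163 without), and by 0.90 ± 0.24 from V-S- to V+S- (adjusted p = 0.0484). Slc4a11, which conducts water and protons in the cornea, went the other way, higher by 0.79 ± 0.07 in V+S- than V-S- cells, and so did Slc24a3, an exchanger of sodium for calcium and potassium, by 0.67 ± 0.16. Slc4a1 (band 3, the anion exchanger of red cells) differed by -0.42 ± 0.09 and Slc9a7, a sodium/proton exchanger of the trans-Golgi network, by 0.52 ± 0.15, both under the fold threshold, on signals of at most 3.04 and 3.10 times background.

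The 3 members for organic ions and amines and both monocarboxylate transporters had higher means in V+ cells in both Venus comparisons, and Slc22a15 and Slc22a17 were called in V+S- against V-S- cells. In V+S+ against V-S+ cells only Slc16a7 of these 5 was called, with the block, which also called it in V+S- against V-S- cells (0.64, adjusted p = 0.000948). Slc22a15, an organic cation transporter, was -1.84 and -1.62 in V-S+ cells of clones 5.1 and 16.1, -1.61 and -1.04 in V+S+, -1.79 and -1.68 in V-S-, and -1.03 and -0.33 in V+S-. It was called higher in V+S- than V-S- cells (1.05 ± 0.27, adjusted p = 0.0435), as was Slc22a17, a receptor for the siderophore-binding protein lipocalin-2 (0.61 ± 0.14), while Slc18a1, a vesicular monoamine transporter, differed by 0.53 ± 0.13 and stayed under the fold threshold. Slc16a7 (MCT2), a high-affinity carrier of pyruvate and lactate, was 0.37 and 0.54 in V-S+ cells, 0.94 and 1.35 in V+S+, 0.29 and 0.64 in V-S-, and 0.99 and 1.22 in V+S-. It rose by 0.70 ± 0.07 from V-S+ to V+S+ with clone as a block (adjusted p = 0.00345), on a reference channel that was mostly at background. With the authors' log10 values and the block this difference was 1.25 and was not called. Slc16a4, of the same family, differed by 0.51 ± 0.12 in V+S- against V-S- cells.

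The SSEA-1 states were compared within one Venus state. In V+S- against V+S+ cells limma called 0 of 35 members, beside 0% of all probes, with 12 members and 4429 of 29483 probes at an unadjusted p under 0.05 and 0 calls by the unmoderated test. With clone as a block Slc37a2, Slc25a24 and Slc22a15 were called higher and Slc27a2 lower, beside 1.75% and 0.353% of all probes (2.11%). The authors' log10 values with the block gave 0 calls, beside 0% of all probes. Leaving out either V+S- sample removed all 4 calls, and leaving out either V+S+ sample changed their number. In V-S- against V-S+ cells 0 members were called with or without the block, beside 0% of all probes, with 5 members (Slc5a1, Slc5a5, Slc7a9, Slc27a3 and Slc37a2) and 834 of 29483 probes at an unadjusted p under 0.05 and 0 calls by the unmoderated test. The median size of a member's difference was 0.10 there and 0.24 between the Venus positive fractions. Fut9, whose enzyme makes the SSEA-1 epitope, was lower by 0.39 in V-S- than V-S+ cells and by 0.64 in V+S- than V+S+ cells.

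Whether the Venus difference itself changed with SSEA-1 was tested for each probe as a difference of differences. Without the clone term 0 members passed FDR 0.05, beside 0% of all probes, with 8 members and 2340 probes (7.94%) at an unadjusted p under 0.05. With clone as a block 2 of the 35 members passed, beside 0.95% of all probes. For Slc27a2 the Venus difference was smaller in SSEA-1 negative cells by -0.86 ± 0.13, and for Slc25a24 it was larger by 0.88 ± 0.13 (adjusted p = 0.0471 for each). Both calls were lost when any 1 of 7 samples was left out.

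In V+S- against V-S+ cells, which differ in both markers and share samples with the comparisons above, 11 members were called higher and 4 lower (Slc5a4b, Slc7a3, Slc15a1 and Slc43a1), beside 5.73% and 1.28% of all probes (7%). With clone as a block the calls were 14 higher and 5 lower, beside 8.87% and 3.02% (11.9%). Without it, 0 calls were left on dropping either V-S+ sample or the V+S- sample of clone 16.1, where at most 0.0199% of all probes were called in a direction. Leaving out one or the other V-S- sample gave 8, beside 2.68% to 2.71% of all probes higher and 0.468% to 0.473% lower. Over all 4 fractions 16 of the 35 members passed FDR 0.05 in the F-test, beside 7.38% of all probes and 45.6% of the other probes of the list, and all 35 with clone as a block, beside 43.5%. It passed 0 members when any V-S+, V-S- or V+S- sample was left out. This is the kind of test by which the list was made. A member was highest in V+S- in 16 cases, in V-S- in 8, in V-S+ in 6 and in V+S+ in 5 (Slc16a7, Slc27a2, Slc35d3, Slc35f1 and Slc39a8).

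The clones were compared with fraction as a term. The list was chosen on differences between fractions with the clones as the only biological replicates, so clone values entered that choice too. The counts here are therefore a description. Since each clone has a slide of its own, effects of clone and of slide cannot be told apart. At 1.5-fold 0 of the 35 members were called in clone 16.1 against clone 5.1, beside 1.39% of all probes higher and 0.746% lower (2.14%). An unadjusted p under 0.05 was reached by 25 members, by 11688 of 29483 probes and by 1118 of the other 1963 probes of the list. The scanner software's processed signals gave 1 call. Without a fold threshold 17 members passed FDR 0.05 (48.6%), beside 26.2% of all probes and 41.8% of the other probes of the list. This count was 5 without either V+S+ sample, 6 without either V+S- sample and 9 without either V-S- sample. It was 8 with the processed signals, 11 with Cy3 alone, 2 with the authors' log10 values and 0 in the unmoderated test. Of the 17, 14 were higher in clone 16.1 and 3 lower (Slc5a1, Slc7a3 and Slc7a9), and each kept its sign in all 4 fractions. Slc35f5 led, at 0.46 ± 0.06 higher in clone 16.1 (adjusted p = 0.00334), followed by Slc35e4 at 0.40 ± 0.06 (adjusted p = 0.00656).

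The clone difference often had the sign of the Venus difference. In V+S+ cells all 21 members with a higher V+S- than V-S- mean were higher in clone 16.1 than in clone 5.1 (median 0.38) and all 14 with a lower one were lower in clone 16.1 (median -0.28). For all probes split in this way the shares were 76.8% and 69.2%, and for the other probes of the list 96.4% and 91.6%. The members' counts were 19 of 21 and 8 of 14 for V-S+ cells (medians 0.12 and -0.025), 20 and 11 for V-S- cells (0.18 and -0.08), and 19 and 11 for V+S- cells (0.20 and -0.175). The shares of all probes were 60.9% and 54% for V-S+, 63.7% and 58.5% for V-S-, and 67.9% and 62.6% for V+S- cells. The clone difference spread over the members with an SD of 0.37 for V+S+, 0.28 for V+S-, 0.14 for V-S+ and 0.18 for V-S- cells. The mean ratio of the 11 primitive endoderm markers also stood higher in the V+S+ sample of clone 16.1 (-0.36) than in that of clone 5.1 (-0.76), and was -0.96 and -1.16 in their V-S+ samples. In the V+S+ samples of clones 5.1 and 16.1 the mean was -2.98 and -2.32 for the mesenchymal markers, 1.28 and 2.09 for Sox11, and 1.35 and 0.89 for the pluripotency genes. The part of these markers in the clone difference of the transporters was not tested.

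**Figure D4:**
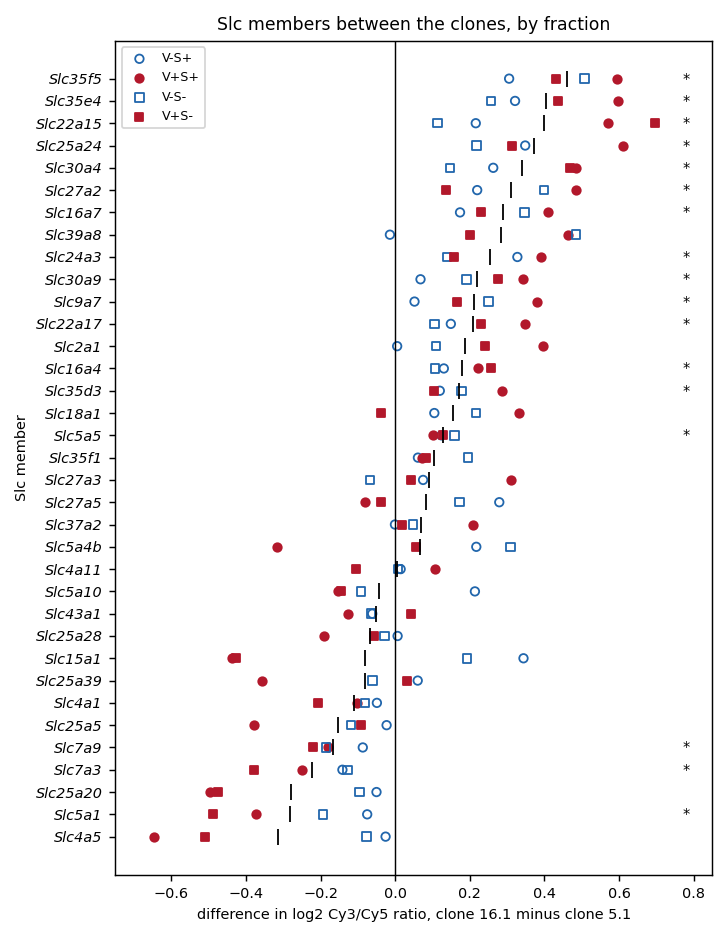
Difference in log2 Cy3/Cy5 ratio between clone 16.1 and clone 5.1 for each Slc member in each of the 4 fractions (open symbols Venus negative, filled symbols Venus positive, circles SSEA-1 positive, squares SSEA-1 negative), with black ticks for the mean over fractions. Asterisks mark the 17 members that passed FDR 0.05. Filled circles lie to the right of 0 for members that are higher in V+ cells and to its left for those that are lower.

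Other transport genes of the list, taken by symbol (pumps, channels, ABC transporters, aquaporins and iron uptake genes), numbered 24. In V+S- against V-S- cells 11 were called higher (45.8%) and 2 lower (8.33%), beside 6.3% and 1.49% of all probes and 53.4% and 13% of the other probes of the list, with a median of 0.62. The list was chosen on these samples. The higher ones included the potassium channel genes Kcnmb4 (1.76 ± 0.36) and Kcna6 (1.64 ± 0.27), the magnesium channel Trpm6 (1.36 ± 0.19) and the calcium channel subunit Cacna1h (1.18 ± 0.25). The lower ones were Aqp3, a water and glycerol channel (-1.22 ± 0.33), and Kcnj12 (-0.91 ± 0.17). Steap1 and Steap2, of a family of metalloreductases that feed metal importers, were called higher by 0.84 ± 0.19 and 0.71 ± 0.16, while Tfrc, the transferrin receptor, differed by -0.60 ± 0.17 and was called lower only with clone as a block (adjusted p = 0.0062), a fit that gave 12 higher and 4 lower calls in all, beside 8.96% and 3.32% of all probes.

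Promoters were read from a table of RefSeq windows, in which 29 of 35 members were matched, each from 250 bases before to 50 after the start. The ratio of observed to expected CG dinucleotides, a mark of CpG islands, was over 0.6 in 12 of 18 members that are higher in V+ cells and in 4 of 11 that are lower, as against 35.5% of all 27025 genes with a window. Among the lower members those over 0.6 were 3 mitochondrial carriers (Slc25a5, Slc25a28 and Slc25a39) and Slc43a1, and the smallest ratios were those of Slc5a4b (0.12), Slc4a5 (0.204) and Slc5a10 (0.235). The array measures no methylation or binding, so these ratios only describe the windows. The 250 bases before the start are shown for the members with the largest rise and the largest fall in V+S- against V-S- cells, with CG in capitals. That of Slc25a24 lies at chr3:109122899-109123148 on the plus strand of GRCm38.p6 and holds 14 CG. That of Slc15a1 lies at chr14:121505255-121505504 on the minus strand and holds 7. In the full windows the ratio was 0.588 for Slc25a24 and 0.411 for Slc15a1, so neither was over 0.6.
Slc25a24: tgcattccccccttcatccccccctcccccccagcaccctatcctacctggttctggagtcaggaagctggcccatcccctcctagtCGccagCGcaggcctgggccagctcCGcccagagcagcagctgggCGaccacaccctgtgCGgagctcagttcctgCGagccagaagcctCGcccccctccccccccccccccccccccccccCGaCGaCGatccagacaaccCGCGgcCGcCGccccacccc
Slc15a1: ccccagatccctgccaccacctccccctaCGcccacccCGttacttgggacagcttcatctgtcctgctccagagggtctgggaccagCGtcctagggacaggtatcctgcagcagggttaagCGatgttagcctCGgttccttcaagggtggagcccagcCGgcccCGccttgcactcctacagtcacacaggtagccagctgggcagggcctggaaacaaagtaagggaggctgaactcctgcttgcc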

How the data were processed

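RNA of 8 samples was measured on 2-colour arrays, and 16 scanner files hold the deposited intensities, which the authors extracted with Agilent Feature Extraction 9.5.1.1 (per the file headers). A deposited table of log10 ratios for 25164 probes, processed by the authors, served as an alternative. Intensities were background corrected (normexp, offset 50), normalised by loess within each scan without control spots, and repeat scans averaged, in R 4.3.3 with limma 3.58.1. Probes had to be well above background in Cy3 in all scans of at least 1 fraction, leaving 29483 probes with a value in every sample. One fit covered all 8 samples with fraction as the only term and Benjamini-Hochberg adjustment over all probes. Calls needed FDR 0.05 and more than 1.5-fold. Samples of a clone share a cell line, and clone differences correlated between fractions (r = 0.588 to 0.811 over 6 pairs of fractions), so the fit with clone as a replicate block is given beside it. P-values without the block measure the spread between 2 clones. Those with the block measure the spread left after a clone difference shared by the fractions is removed. The number of clones limits the precision of both. SEs of differences between fractions come from the fit without the block unless the block is named.

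Median Cy3 signal was 2.364 to 2.873 times background, with 28316 to 29671 probes well above background per sample. The files give no gene names, so probes were named through the first 1998 of 2169 rows of the study's supplementary list. The other rows were not analysed here. All members are named. Values in every sample are given for the 3 largest rises and 3 largest falls, of the same sign in both clones, in V+S+ against V-S+, V+S- against V-S- and V+S- against V+S+, and for the largest difference in each of 9 groups of families. The members and lists were chosen with earlier results of these data known. The fits were run on simulated data with normal noise and a clone difference shared by all fractions. In the data the clone difference spread more over all probes in V+S+ cells (SD 0.301) than in V-S+ cells (SD 0.188). The simulation did not cover that setting. Genome positions are from RefSeq (GRCm38.p6).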

Additional observations from a re-analysis of the deposited data

Results flagged for a closer look

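Slc5a1, a sodium-glucose cotransporter, moved in opposite directions in the clones in V+S- against V-S+ cells, by 0.17 in clone 5.1 and by -0.24 in clone 16.1. The mean difference was -0.03 ± 0.10 (SE with clone as a block, limma adjusted p = 0.808). The difference between the clones was not tested, and repeat scans of the probe, which show technical spread alone, were up to 0.10 apart.

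With clone as a block, the difference between the Venus differences of the SSEA-1 negative and positive cells passed FDR 0.05 for Slc25a24 (0.88) and Slc27a2 (-0.86), and for neither of them without the block.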

How the results depend on the processing

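Without the block, the calls in V+S- against V-S- cells (18) went to 6 with the authors' log10 values, 4 in the unmoderated test and 0 to 21 with 1 sample left out (9 without either V-S+ sample). The calls in V+S- against V-S+ cells (15) went to 5, 4 and 0 to 19. With clone as a replicate block the calls were 21 and 19, 11 in V+S+ against V-S+ cells, 4 in V+S- against V+S+ cells, and 35 members passed the F-test (16 without it) and 2 the test between SSEA-1 states. The combinations chosen after seeing the data joined the block to other values. In V+S+ against V-S+ cells the authors' values gave 7 calls, beside 1.91% of all probes higher and 0.346% lower. The scanner software's processed signals gave 15 there, beside 4.5% and 1.99%. In V+S- against V-S+ cells these values gave 26 calls (beside 9.55% and 3.91%) and 29 (beside 11.7% and 6.36%). In V+S- against V+S+ cells they gave 0 (beside 0%) and 5 (beside 1.94% and 0.329%), and in the F-test 28 and 34 members. The F-test passed 0 members with the authors' values, the processed signals or the unmoderated test, and 0 to 27 with 1 sample left out. Between clones the processed signals called 1 member. With the block and 1 sample left out, the number of calls changed in every comparison between fractions that had calls. It was 0 in some fits of V+S- against V+S+ cells and of the test between SSEA-1 states. Every member kept its sign in V+S+ against V-S+ and V+S- against V-S- cells under all alternatives that kept the 8 samples. With 1 sample left out Slc24a3 turned to -0.06 and -0.09 in the former and Slc27a2 to -0.06 in the latter. The causes were not tested. In 17 members Cy3 stayed under 10 times background, where ratios are narrowed.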
